A study of Arabidopsis thaliana with 12 samples.

Results

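The 57 genes described here encode the cytosolic ribosomal proteins RPL3 to RPL26 of the large (60S) ribosomal subunit in Arabidopsis thaliana, and they belong to 23 families of 1 to 4 listed paralogues. They were taken from a fixed list of locus identifiers, and all 57 of 57 were in a table of 23337 genes. RNA was measured in germinating seeds at 1 day after imbibition, after 2 days of stratification at 4 °C. The 4 groups were wild type (WT) and the mutant atcyp18-1, each unheated (normal) or exposed to 45 °C for 2 h, with 3 libraries in each of the 4 groups and 12 libraries in all. The mutant is named for the cyclophilin gene CYP18-1, which encodes a peptidyl-prolyl isomerase, and the kind of lesion is not given in the labels. Whether the 3 libraries of each group are independent seed batches is not stated, so p-values measure the spread between these libraries, which may be technical. Letter names such as RPL7D follow the usual plant nomenclature and are given with the locus identifier of the table.

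Ribosomal proteins of the large subunit hold the ribosomal RNA in shape around the peptidyl transferase centre and the tunnel through which the new protein leaves. In plants nearly every one is encoded by several active paralogues, and a ribosome takes 1 copy of each protein described here. Whether the paralogues of a family can replace each other was not tested. Germinating seeds build ribosomes as they leave dormancy, and in many eukaryotes the genes are switched down together under stress. Fewer cells of a type and less RNA per cell cannot be told apart in these whole-seed samples.

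The libraries held 7468922 to 10506481 gene-assigned reads, and the members took 4.00 to 4.87% of them. CYP18-1 (AT1G01940) was at 21.6, 23.2 and 21.4 CPM (read counts scaled to a common library size) in WT normal and at 2.41, 1.71 and 1.66 CPM in atcyp18-1 normal. It was at 25.3, 25.2 and 26.2 CPM in WT heat and at 3.85, 2.17 and 4.08 CPM in atcyp18-1 heat. The mutant libraries lay below the WT libraries at each temperature, while the 2 mutant groups overlapped each other. Even so, CYP18-1 was called higher in mutant heat by edgeR at an adjusted p under 0.05, with a log2 change of 0.82. In WT the heat libraries lay above the normal ones, and the log2 change of 0.22 was not called. All 9 seed storage and oleosin markers were detected. Their summed level was 2311 to 3741 CPM in unheated WT, 7549 to 8943 CPM in unheated atcyp18-1, 2814 to 5184 CPM in heated WT and 6812 to 10649 CPM in heated atcyp18-1. The 5 green leaf markers summed to 953 to 1404 CPM over all libraries with CA1 under 1 CPM, and the 4 endosperm and seed coat markers summed to 140 to 206 CPM with BAN and TT10 under 1 CPM.

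Of the 57 members, 56 passed the filter on low counts. RPL8B (AT3G51190) did not, at 0.0876 to 0.506 CPM in the 12 libraries. Per kilobase of exon, the members spread over more than an order of magnitude within some families. In WT normal, RPL10A (AT1G14320), whose family sits near the peptidyl transferase centre, was at 901 CPM per kb, its paralogue RPL10C (AT1G66580) at 364 CPM per kb and RPL10B (AT1G26910) at 45.5 CPM per kb. RPL19A (AT1G02780), of a family placed near the tunnel exit, was at 1582 CPM per kb, above RPL19B (AT3G16780) at 154 and RPL19C (AT4G02230) at 169 CPM per kb. In the RPL5 family, whose protein carries the 5S ribosomal RNA, both paralogues were high, with RPL5A (AT3G25520) at 1186 and RPL5B (AT5G39740) at 980 CPM per kb.

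**Figure D1:**
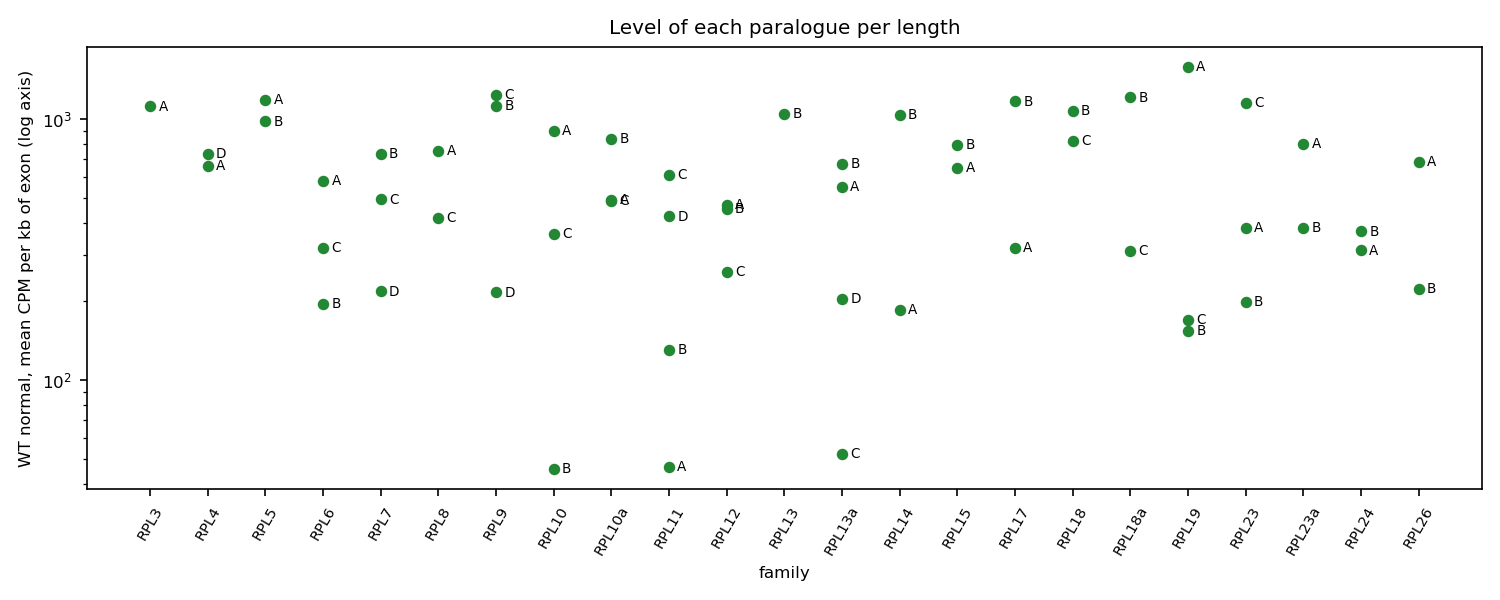
Level of each tested member in WT normal, as mean CPM per kilobase of exon on a log axis, by family; letters name the paralogue. RPL10B, at 45.5 CPM per kb, lies far below RPL10A, at 901 CPM per kb, while RPL5A and RPL5B lie close together.

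Heat in WT. The question was how the 57 genes responded to 2 h at 45 °C. Of the 56 tested members 42 rose and 6 fell, and the median change was 0.39 on the log2 scale. Among all 17296 genes tested 50.1% were called, 25% higher and 25.1% lower, with a median change of 0.00. Calls were made with edgeR's quasi-likelihood test at a Benjamini-Hochberg adjusted p under 0.05. The 3 heat libraries lay above the 3 normal libraries for 43 members and below them for 6, against 56.0% of all genes apart, 27.5% higher and 28.5% lower. With library sizes left unscaled the median of all genes was -0.21, and 29 members were then higher and 9 lower. Of all calls 49.9% were higher with scaling and 27.6% without it. By family, with the reads of paralogues summed, 20 of 23 families rose and 1 fell, where 50.1% of all rows were called; without scaling 13 were higher and 2 lower.

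The largest rise was in RPL26B (AT5G67510, chr5:26937621-26938498), of a family at the tunnel exit. It was at 190, 204 and 193 CPM in WT normal and at 365, 357 and 377 CPM in WT heat. Every heat library was above every normal library, and the log2 change was 0.90 ± 0.06 (SE; adjusted p = 3.79e-10, edgeR). RPL11C (AT4G18730, chr4:10302163-10303432), whose family binds the 5S ribosomal RNA with RPL5, went from 498, 530 and 527 CPM to 972, 900 and 978 CPM. Its log2 change was 0.87 ± 0.06, again with no overlap. RPL13aD (AT5G48760) rose by 0.79, RPL15A (AT4G16720) by 0.74 and RPL17B (AT1G67430), of a family that lines the tunnel, by 0.73 on the log2 scale.

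The deepest fall was in RPL7D (AT3G13580, chr3:4433047-4435305). It was at 232, 234 and 229 CPM in WT normal and at 135, 123 and 117 CPM in WT heat, a log2 change of -0.89 ± 0.07 (adjusted p = 1.63e-09, edgeR). RPL19B fell by 0.59, RPL24B (AT3G53020) by 0.47, RPL19C by 0.42 and RPL24A (AT2G36620) by 0.28 on the log2 scale, and the sixth was RPL6A (AT1G18540), at -0.27. RPL24, whose protein bridges the subunits, was the family that fell as a whole, with a log2 change of -0.38 ± 0.07. RPL14 and RPL6 were the families that were not called.

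Heat in atcyp18-1. Of the 56 members 30 rose and 9 fell, with a median log2 change of 0.24, beside 46.3% called among all genes, 22.9% higher and 23.4% lower. Groups were apart for 36 members that were higher and 10 that were lower, and for 54.6% of all genes, 27% higher and 27.5% lower. Without scaling of library sizes the median of all genes was -0.23 and 16 members were higher and 16 lower. Of all calls 49.5% were higher with scaling and 22.9% without it. By family 17 rose and 1, RPL24, fell, beside 46.3% of all rows called; without scaling 7 were higher and 5 lower. The 30 members that rose in the mutant made up 71.4% of those that rose in WT and 100% of those in the mutant, and the 6 that fell in WT were all among the 9 in the mutant. The same overlap was not computed over all genes, so it is not read as a trait of the members. Without atcyp18-1 heat replicate 3 the 9 falls became 5.

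RPL17B had the largest rise, 0.74 ± 0.06 on the log2 scale, followed by RPL11C at 0.72, RPL13aD at 0.63, RPL26B at 0.60 and RPL3A (AT1G43170) at 0.57. RPL3A, whose protein lies at the peptidyl transferase centre, was at 2100, 1997 and 2069 CPM in atcyp18-1 normal and at 3112, 3106 and 2958 CPM in atcyp18-1 heat, with no overlap. RPL7D again fell most. It was at 235, 247 and 247 CPM in atcyp18-1 normal and at 138, 126 and 135 CPM in atcyp18-1 heat, a log2 change of -0.87 ± 0.07 (adjusted p = 2.52e-09, edgeR). RPL19B changed by -0.53, RPL24B by -0.44, RPL6A by -0.43 and RPL11B (AT3G58700) by -0.29 on the log2 scale. The other falls were RPL24A, RPL14A (AT2G20450), RPL10aC (AT5G22440) and RPL19C.

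**Figure D2:**
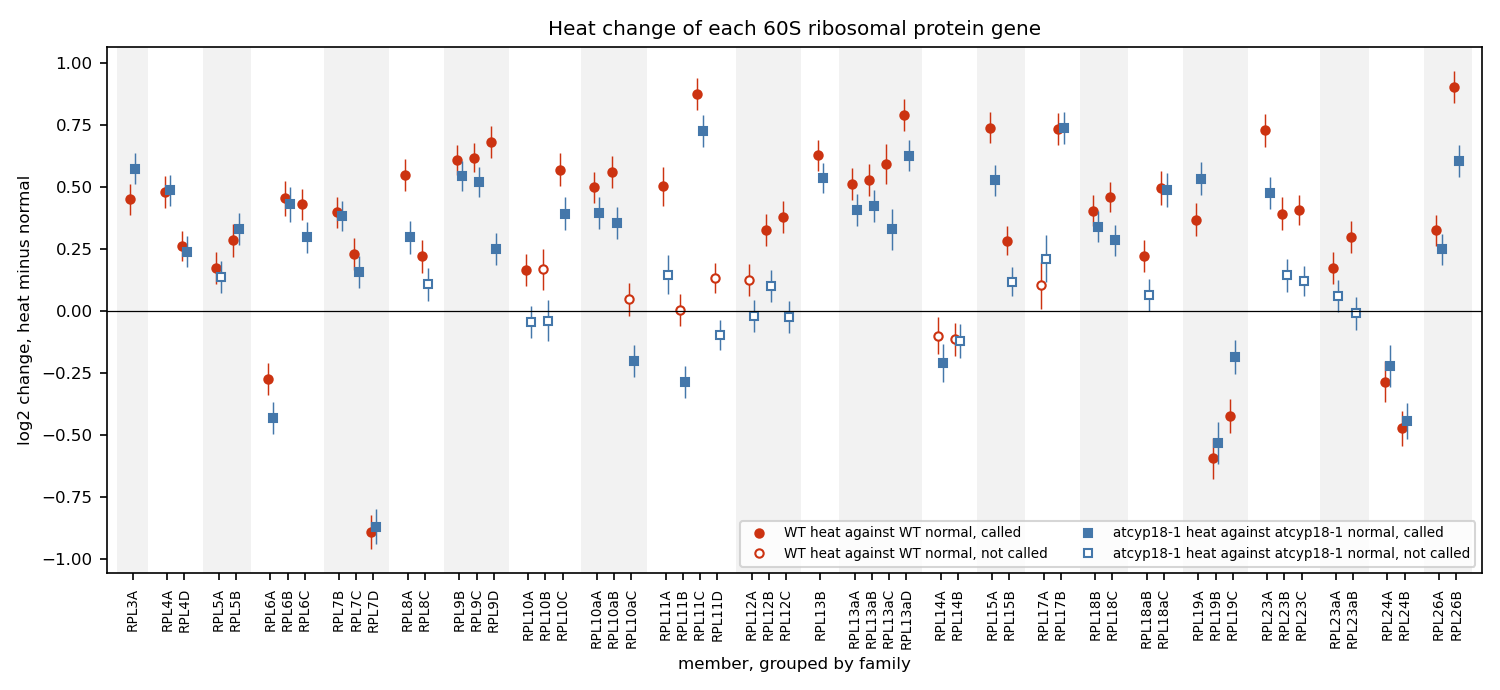
Heat change of each of the 56 tested members on the log2 scale with its standard error, for WT (circles) and atcyp18-1 (squares); filled symbols are called at an adjusted p under 0.05. RPL7D lies lowest in both genotypes, at -0.89 and -0.87, and RPL26B, RPL11C and RPL17B lie near the top.

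In 7 families, RPL3, RPL9, RPL13, RPL13a, RPL18, RPL4 and RPL26, every tested member rose in both genotypes. RPL9B, RPL9C and RPL9D rose by 0.61, 0.62 and 0.68 in WT heat, and RPL13aA, RPL13aB (AT3G24830) and RPL13aC by 0.51, 0.53 and 0.59. RPL13B, of a family with a single listed gene, rose by 0.63 in WT and 0.54 in the mutant, RPL4A by 0.48 and 0.49, and RPL4D (AT5G02870) by 0.26 and 0.24. RPL18B (AT3G05590) rose by 0.40 and RPL18C (AT5G27850) by 0.46 in WT heat, and RPL26A (AT3G49910) by 0.32.

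Other families held members that were called in WT heat and missed the threshold in mutant heat; the difference between the genotypes itself was called for RPL9D and RPL12C only, as given with the interaction. RPL8A (AT2G18020), whose protein lies near the peptidyl transferase centre, rose by 0.55 in WT and by 0.30 in the mutant, and RPL8C by 0.22 in WT, with 0.11 in the mutant. RPL23A (AT1G04480) rose by 0.73 and 0.47, while RPL23B and RPL23C rose by 0.39 and 0.41 in WT and stood at 0.14 and 0.12 in the mutant. RPL18aC (AT3G14600) rose by 0.50 and 0.49, and RPL18aB (AT2G34480) by 0.22 in WT, with 0.06 in the mutant. RPL15B (AT4G17390) and RPL5A rose by 0.28 and 0.17 in WT and were at 0.12 and 0.14 in the mutant, and RPL5B rose by 0.28 and 0.33. RPL10aA and RPL10aB (AT2G27530), of the family in the mobile stalk beside the exit site for transfer RNA, rose by 0.50 and 0.56 in WT. RPL10C rose by 0.57 and 0.39, RPL10A by 0.16 in WT, and RPL10B stood at 0.17, not called. RPL12B (AT3G53430) rose by 0.33 in WT, with 0.10 in the mutant. The members not called in either genotype were RPL10B, RPL11D (AT5G45775), RPL12A, RPL14B (AT4G27090) and RPL17A.

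Paralogues in heat. In 3 families, RPL6, RPL7 and RPL19, called members moved in opposite directions in WT heat, and in 5 families, those and RPL10a and RPL11, in atcyp18-1 heat. The log2 ratio of 2 paralogues within a library does not depend on the scaling of libraries. RPL7B (AT2G01250, chr2:132578-134455) was at 880, 894 and 866 CPM in WT normal and at 1204, 1139 and 1136 CPM in WT heat, rising by 0.40 on the log2 scale while RPL7D fell. The ratio of RPL7B to RPL7D went from 3.79 to 9.28 with heat in WT and from 3.36 to 7.99 in the mutant. Its log2 value rose by 1.29 in WT and by 1.25 in the mutant, with heat libraries apart from normal ones (p = 0.1 in each genotype by an exact two-sided permutation test, the lowest value possible with 3 against 3). RPL7C (AT2G44120) rose by 0.23 in WT.

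RPL19A rose by 0.37 in WT heat and by 0.53 in mutant heat, and its ratio to RPL19B went from 10.2 to 19.9 in WT and from 11.8 to 24.8 in the mutant. RPL19B was at 169, 180 and 166 CPM in WT normal and at 123, 113 and 106 CPM in WT heat. RPL11B was at 133, 139 and 140 CPM in WT normal and at 138, 138 and 137 CPM in WT heat, a range that overlapped, while RPL11C rose. The ratio of RPL11B to RPL11C was 0.265 in WT normal, 0.145 in WT heat, 0.229 in atcyp18-1 normal and 0.114 in atcyp18-1 heat. RPL6A was at 906, 912 and 867 CPM in WT normal and at 779, 753 and 689 CPM in WT heat, whereas RPL6B (AT1G74060) went from 320, 346 and 303 CPM to 476, 423 and 429 CPM. The ratio of RPL6A to RPL6B was 2.77 in WT normal and 1.13 in atcyp18-1 heat, with values between these in the other groups.

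**Figure D3:**
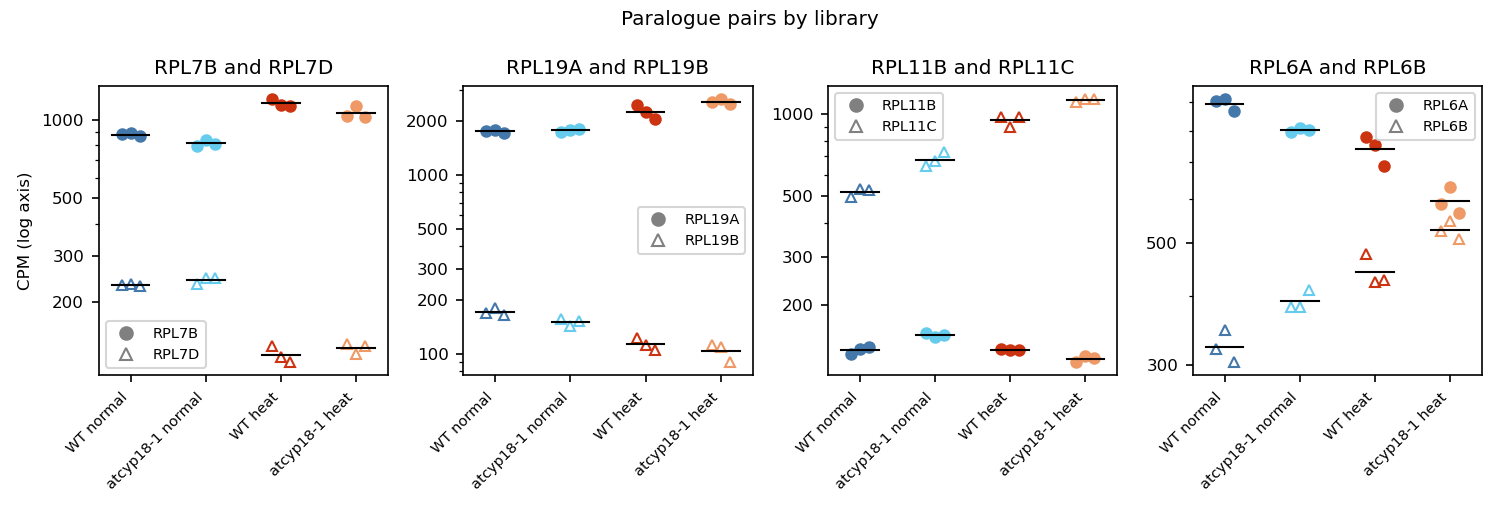
CPM of 4 paralogue pairs in each of the 12 libraries on a log axis; bars are the means of 3 libraries. RPL7B, RPL19A and RPL6B are higher and RPL7D, RPL19B and RPL6A lower in the heat groups than in the normal groups of the same genotype.

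Over all 47 pairs of tested paralogues, the heat and normal ratios were apart for 34 pairs in WT, for 37 in the mutant and for 32 in both, and they overlapped in both genotypes for 8. Of all single genes 56.0% were apart in WT heat and 54.6% in mutant heat. The share for ratios of other gene pairs was not computed, so these counts are not read as a trait of paralogues. Among the 8 pairs that overlapped in both, RPL10A to RPL10B was between 23.5 and 23.7 in all 4 groups, RPL23B (AT2G33370) to RPL23C (AT3G04400) between 0.208 and 0.212, and RPL9B (AT1G33120) to RPL9C (AT1G33140) between 0.911 and 0.927. Coding sequences of paralogues were 79.1 to 99.1% identical over 49 pairs. RPL9B and RPL9C, at 99.1%, were the only pair over 95% and share an identical run of 458 bases, so their reads may be split between them and their separate values are uncertain.

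Because the RPL7 and RPL19 families held the widest splits between paralogues, their promoters were read from the TAIR10.1 reference (RefSeq), from 250 bases before to 50 bases after the annotated gene start. Capitals mark the site II motif (TGGGCC or TGGGCT, either strand) and the telo box (AAACCCTA, either strand), elements long known in plant ribosomal protein promoters; the 2 motifs can share at most 1 end base.
RPL7B promoter (chr2:134406-134705, minus strand): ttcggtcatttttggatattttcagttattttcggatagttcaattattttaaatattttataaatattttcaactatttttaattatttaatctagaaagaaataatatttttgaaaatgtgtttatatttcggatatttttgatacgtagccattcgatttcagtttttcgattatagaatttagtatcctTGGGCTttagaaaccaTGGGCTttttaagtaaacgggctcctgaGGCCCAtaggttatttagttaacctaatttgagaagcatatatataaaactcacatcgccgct
RPL7D promoter (chr3:4432797-4433096, plus strand): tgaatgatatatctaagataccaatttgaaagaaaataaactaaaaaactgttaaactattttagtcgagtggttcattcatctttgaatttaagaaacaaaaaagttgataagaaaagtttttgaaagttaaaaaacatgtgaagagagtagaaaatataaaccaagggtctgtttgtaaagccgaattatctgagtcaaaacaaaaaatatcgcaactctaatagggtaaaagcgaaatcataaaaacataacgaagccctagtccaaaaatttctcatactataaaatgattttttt
RPL19A promoter (chr1:609485-609784, minus strand): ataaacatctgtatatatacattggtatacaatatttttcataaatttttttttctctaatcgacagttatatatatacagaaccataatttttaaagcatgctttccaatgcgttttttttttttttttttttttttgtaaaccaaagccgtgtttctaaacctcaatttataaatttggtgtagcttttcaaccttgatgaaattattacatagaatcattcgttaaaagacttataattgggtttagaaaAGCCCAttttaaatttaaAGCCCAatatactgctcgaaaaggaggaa
RPL19B promoter (chr3:5708576-5708875, plus strand): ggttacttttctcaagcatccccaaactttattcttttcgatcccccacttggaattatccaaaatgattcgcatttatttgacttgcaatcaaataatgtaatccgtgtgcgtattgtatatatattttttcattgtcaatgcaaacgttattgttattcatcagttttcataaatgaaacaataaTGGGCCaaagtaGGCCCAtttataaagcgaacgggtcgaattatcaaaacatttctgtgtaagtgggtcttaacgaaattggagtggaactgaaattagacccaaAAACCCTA
A site II motif was in 51 of the 57 member windows (89.5%) and in 21.7% of the windows of 27443 protein-coding genes. A telo box was in 32 member windows (56.1%) and in 6.22% of all windows. Of the 42 members that rose in WT heat 88.1% held a site II motif and 52.4% a telo box, and of the 6 that fell 83.3% and 66.7% did. The RPL7B window held 3 site II motifs and no telo box, and the RPL7D window held neither. The RPL19A window held 2 site II motifs, and the RPL19B window held 2 and a telo box.

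Genotype. Between the unheated groups 19 members were higher and 1 was lower in atcyp18-1, with a median log2 difference of 0.13, beside 23.4% of all genes called, 11.2% higher and 12.2% lower. This direction rests on the scaling: without it the median of all genes was -0.14, and 1 member was higher and 14 lower. Of all calls 47.9% were higher in the mutant with scaling and 18.4% without it. Groups did not overlap for 30 members that were higher and 10 that were lower, where 40.1% of all genes were apart, 19.5% higher and 20.6% lower. By family 7 were higher and 1 lower, beside 23.4% of all rows, and without scaling 0 were higher and 4 lower. The 7 became 3 without WT normal replicate 1 or atcyp18-1 normal replicate 3 and 4 without WT normal replicate 3 or atcyp18-1 normal replicate 1. The family called lower, RPL5, was not called without any 1 of the 6 unheated libraries or atcyp18-1 heat replicate 1. RPL11C was at 498, 530 and 527 CPM in WT normal and at 644, 672 and 724 CPM in atcyp18-1 normal, a log2 difference of 0.39 ± 0.06 (adjusted p = 0.000201, edgeR). RPL11A (AT2G42740) was higher by 0.31, RPL15A by 0.29, RPL13aA (AT3G07110) by 0.28 and RPL6B by 0.28. The member called lower was RPL5A, at -0.19 ± 0.06, and it was not called without any 1 of the 6 unheated libraries. The count of lower members was 3 without WT heat replicate 1 and 2 without WT heat replicate 3, which enter the shared estimate of spread. All 9 seed markers were higher in the mutant, with a median log2 difference of 1.11. Their part in the members' difference was not tested.

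Between the heated groups 5 members were higher and 10 lower in atcyp18-1, with a median log2 difference of -0.02, beside 16.7% of all genes called, 8.17% higher and 8.49% lower. Without scaling the median of all genes was -0.18, and 0 members were higher and 25 lower. Of all calls 49.0% were higher with scaling and 14.1% without it. Groups were apart for 11 members that were higher and 18 that were lower, where 32.6% of all genes were apart, 15% higher and 17.6% lower. By family RPL3 was higher and RPL23a lower, beside 16.6% of all rows called, and without scaling 0 were higher and 9 lower. No family was higher without any 1 of WT heat replicates 2 and 3 or the 3 atcyp18-1 heat libraries, 2 were without WT heat replicate 1, and 2 were lower without WT heat replicate 3. The 5 higher members became 0 without WT heat replicate 2, 1 without WT heat replicate 3 or atcyp18-1 heat replicate 2, 2 without atcyp18-1 heat replicate 1 and 3 without atcyp18-1 heat replicate 3. The 10 lower members became 5 without WT heat replicate 1 or atcyp18-1 heat replicate 3. RPL23aB (AT3G55280), of a family at the tunnel exit, was at 442, 410 and 427 CPM in WT heat and at 331, 334 and 314 CPM in atcyp18-1 heat. Its log2 difference was -0.39 ± 0.07 (adjusted p = 0.000419, edgeR) and the groups did not overlap. RPL9D (AT4G10450) differed by -0.36, RPL26B by -0.35, and RPL6A and RPL13aC (AT4G13170) by -0.32 each. The members called higher were RPL6B by 0.25, RPL11C by 0.24, RPL3A by 0.21, RPL9B by 0.20 and RPL9C by 0.17 on the log2 scale. RPL9B and RPL9C are the near-identical pair whose separate values are uncertain. The summed RPL9 family was not called (log2 difference 0.15, adjusted p = 0.0960, edgeR). The other members called lower were RPL10aC at -0.30, RPL5A and RPL14A at -0.23 each, RPL23aA (AT2G39460) at -0.23 and RPL12A (AT2G37190) at -0.19. RPL6 and RPL9 held members called in both directions. Of the 9 seed markers 5 were higher in the heated mutant, with a median of 0.79, and their part in these differences was not tested.

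The heat change differed between genotypes for 2 members, both lower, beside 1.08% of all genes called, 0.63% higher and 0.451% lower. At an unadjusted p under 0.05 it was higher for 1 member and lower for 17 of 56, beside 7.57% and 8.61% of all genes, and 0 families were called, beside 1.07% of all rows. With heat RPL9D went from 199, 212 and 217 CPM to 328, 333 and 346 CPM in WT and from 217, 222 and 220 CPM to 246, 271 and 265 CPM in atcyp18-1. Heat libraries were above normal ones in both genotypes, and the mutant heat libraries lay below all those of WT heat. Its heat change was smaller in the mutant by 0.43 ± 0.09 on the log2 scale (adjusted p = 0.0325, edgeR interaction term). RPL12C (AT5G60670), whose family forms the base of the stalk that binds translation factors, rose by 0.38 in WT heat. In mutant heat its log2 change was -0.02, which was not called, and the interaction was -0.40 ± 0.09 (adjusted p = 0.0432, edgeR). Neither was called without any 1 of WT normal replicates 1 and 2, the 3 atcyp18-1 normal libraries, WT heat replicates 2 and 3, or atcyp18-1 heat replicates 1 and 3, and 1 of them without WT normal replicate 3. Across the 56 members the interaction was positive for 11, and its median was -0.11. This tilt was not particular to the members. Among 67 other tested genes of 60S and stalk proteins, described below, the median interaction was -0.21. At an unadjusted p under 0.05 (edgeR) it was higher for 1 of those genes and lower for 29.

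**Figure D4:**
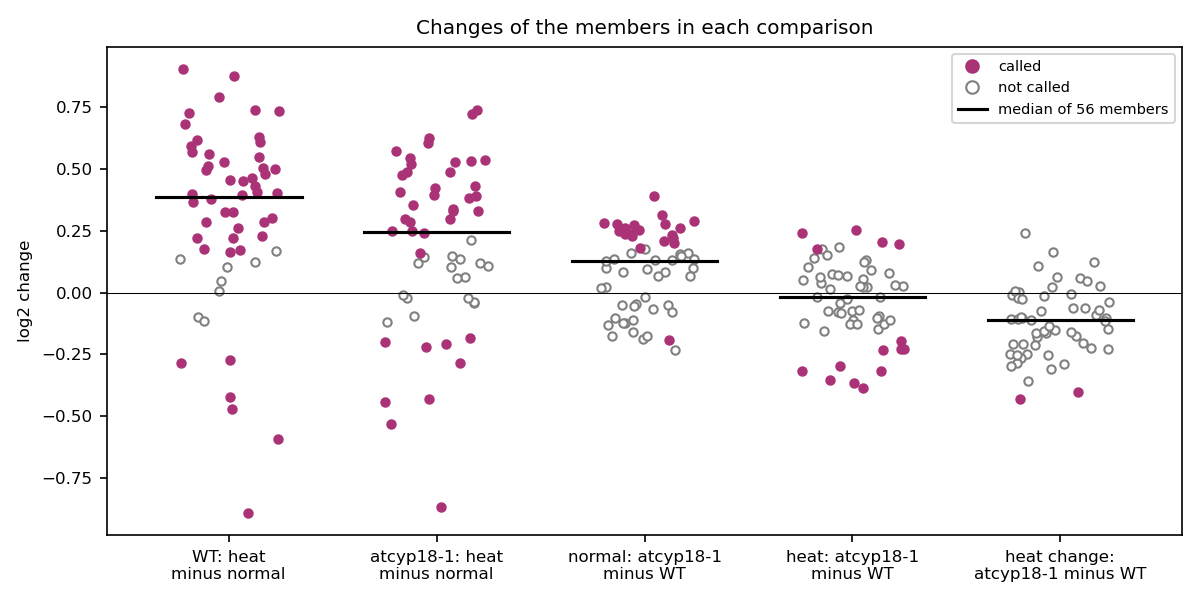
Log2 change of the 56 tested members in the 4 pairwise comparisons and in the difference of heat change between genotypes; points are members, filled where called, and bars are medians. The medians are 0.39, 0.24, 0.13, -0.02 and -0.11 from left to right.

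Introns. The authors' deposited intron retention tables list introns whose ratio of intron reads to adjacent exon reads differed between 2 groups by the authors' own thresholds, so they hold called events only. Of the 57 members 52 have introns in the annotation used here, 179 in all in the reference transcripts. The 4 tables held 58 distinct member introns in 37 genes. All 58 matched an annotated TAIR10.1 intron and began with GT and ended with AG. Introns are numbered as the tables number them, from the lowest coordinate, so in a gene on the minus strand the count starts at the 3′ end. Group mean intron ratios were 0.000970 to 0.194. The groups were apart for every listed member intron, and the introns were listed from these same libraries. A lack of overlap given below for a listed intron is therefore no separate support.

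The list for WT heat held 24 introns of 20 members, and 20 of the 24 had a lower ratio in heat. Among all 2488 introns of that list, 92.8% had a higher ratio in heat. The list for atcyp18-1 heat held 44 introns of 28 members and all 44 were lower in heat, while 82.2% of the 2458 introns of that list were higher. Of all tested genes 7.28% had an intron listed for WT heat, 6.45% as higher and 0.879% as lower. For mutant heat 7.45% had one, 5.56% as higher and 2.01% as lower. By the sign of the difference between group means, the scaled intron signal moved in the same direction as the ratio for all 24 and all 44. For intron 1 of RPL7D, given below, the signal itself hardly changed. Both tables held 13 of these introns, 54.2% of the WT introns and 29.5% of the mutant introns. The overlap among all introns of both lists was not computed, so these shares are not read as a trait of the members.

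Intron 6 of RPL17A (AT1G27400, chr1:9516580-9516677) showed the largest fall of the ratio in both tables. Its ratio was 0.0261, 0.0175 and 0.0256 in WT normal and 0.00364, 0.00537 and 0.00723 in WT heat. In the mutant it was 0.0244, 0.0315 and 0.0334 in normal and 0.00302, 0.00126 and 0.00337 in heat. Normal and heat libraries were apart in both genotypes (exact two-sided permutation p = 0.1, the smallest possible). This is no separate support, because the intron was listed from these same libraries and picked for its large fall. RPL17A itself was not called in heat, with log2 changes of 0.10 and 0.21. In the authors' deposited table the ratios between groups were 4.26 and 11.7 with p of 0.0151 and 0.00743. Intron 4 of RPL11C (chr4:10302919-10303007) went from 0.00586 to 0.00150 in WT and from 0.00758 to 0.00101 in the mutant as group means, while the gene rose. Intron 1 of RPL10A (chr1:4888280-4888548) went from 0.00752 to 0.00202 and from 0.0102 to 0.00164.

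The 4 introns with a higher ratio in WT heat were intron 1 of RPL7D, intron 2 of RPL6A and introns 3 and 4 of RPL10aC. RPL7D and RPL6A fell in WT heat, and RPL10aC was not called, with a log2 change of 0.05. Intron 1 of RPL7D (chr3:4433176-4433806) lies before the coding sequence. Its ratio was 0.117, 0.0797 and 0.0778 in WT normal and 0.193, 0.224 and 0.164 in WT heat, with no overlap, while its scaled intron signal was 50.2 and 50.4 as group means. In the authors' deposited junction tables the reads across this intron fell from a mean of 372 to 165 in WT and from 347 to 160 in the mutant, with p of 0.00379 and 0.00154. Intron 2 of RPL6A had a ratio of 0.0101, 0.00942 and 0.0115 in WT normal and of 0.0205, 0.0187 and 0.0177 in WT heat. Intron 3 of RPL10aC (chr5:7435934-7436019) went from 0.00629, 0.00900 and 0.00872 to 0.0177, 0.0221 and 0.0143, and intron 4 (chr5:7436243-7436481) from a mean of 0.0201 to 0.0438.

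The other listed introns were lower in heat. Besides those named, the WT list held introns 3 of RPL10A, 5 of RPL17A, 1 of RPL9B, 2 of RPL9C, 4 of RPL3A, 4 and 5 of RPL17B, 2 of RPL7B, 1 of RPL8A, 2 of RPL23aA, 3 of RPL18B, 3 of RPL13aB, 5 of RPL5A, 2 of RPL9D, 1 of RPL15A, 4 of RPL14B and 4 of RPL18C. In the authors' deposited table their ratios between groups ran from 1.70 for RPL14B to 3.63 for RPL15A. In the mutant the ratios of the authors' deposited table were 6.75 for intron 5 of RPL5A, 5.79 for intron 2 of RPL9C, 4.39 for intron 4 of RPL3A, 3.81 for intron 1 of RPL19A, 3.63 for intron 6 of RPL7B and 3.33 for intron 2 of RPL23aB. RPL23A, RPL23B, RPL23C, RPL23aA, RPL10aA, RPL10aB, RPL10C, RPL6B, RPL14A, RPL24A, RPL8C, RPL5B, RPL11D, RPL13B, RPL15A, RPL17B, RPL18B, RPL18C and RPL9B also had listed introns there, each lower in heat. Of the 9 members that fell in mutant heat, RPL24A and RPL14A were on this list. RPL7D, RPL19B, RPL19C, RPL24B, RPL6A, RPL11B and RPL10aC were not. RPL10aA and RPL10C were among the listed genes that rose. Whether the ratios follow the change of the gene itself was not tested.

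**Figure D5:**
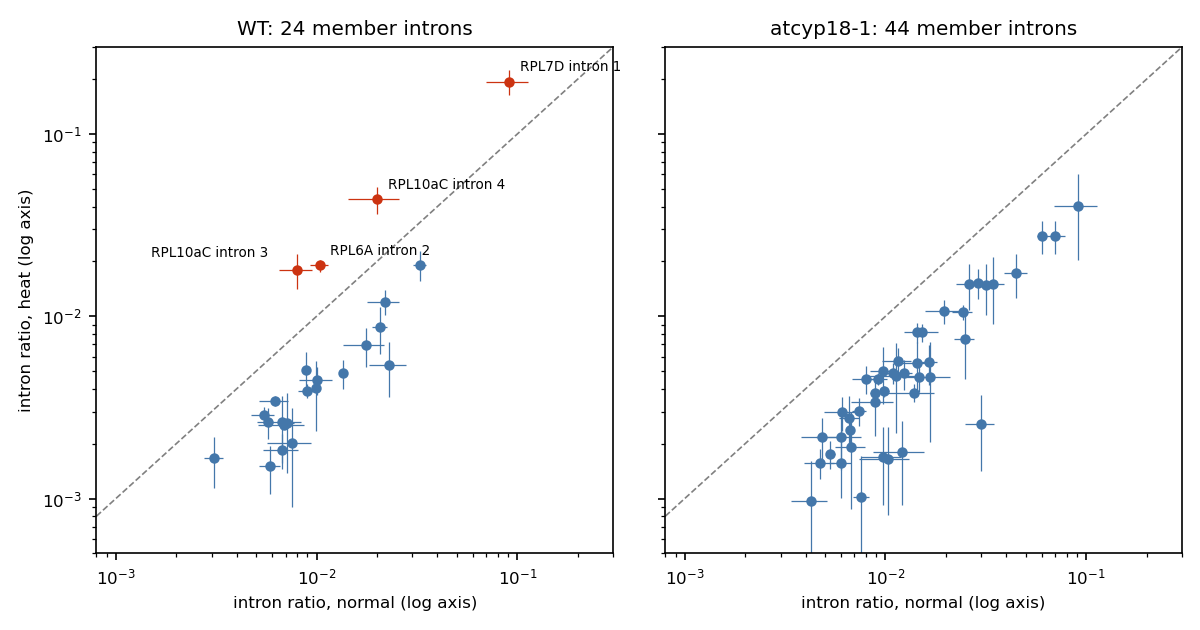
Mean intron ratio of the member introns listed in the authors' heat tables, normal against heat, on log axes, for WT (24 introns) and atcyp18-1 (44 introns); bars are SD over 3 libraries and the dashed line marks equal values. The 4 named introns above the line in WT are higher in heat and the others lie below it, as do all 44 of the mutant.

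To set introns that rose beside introns that fell, 2 short ones of each kind are shown in full and the long RPL7D intron by its ends (TAIR10.1 from RefSeq, transcript strand). Capitals mark the first and last 2 bases.
RPL6A intron 2 (chr1:6377888-6377975, minus strand): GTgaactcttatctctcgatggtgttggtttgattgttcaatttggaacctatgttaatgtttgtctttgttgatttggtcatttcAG
RPL10aC intron 3 (chr5:7435934-7436019, minus strand): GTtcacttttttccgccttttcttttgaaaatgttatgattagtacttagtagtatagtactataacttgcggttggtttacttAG
RPL7D intron 1, first 30 bases (chr3:4433176-4433205, plus strand): GTtagtcttcttctttctcttcgccctctc
RPL7D intron 1, last 30 bases (chr3:4433777-4433806, plus strand): aattttgttctttggctatgtaatttacAG
RPL17A intron 6 (chr1:9516580-9516677, plus strand): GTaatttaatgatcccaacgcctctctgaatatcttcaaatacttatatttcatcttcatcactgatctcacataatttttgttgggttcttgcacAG
RPL11C intron 4 (chr4:10302919-10303007, plus strand): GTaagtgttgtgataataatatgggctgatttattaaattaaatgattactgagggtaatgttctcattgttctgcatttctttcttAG
The first 2 rose in ratio in WT heat, as did RPL7D intron 1, and the last 2 fell in both genotypes. All are GT-AG introns, and the whole introns shown are 86 to 98 bases long, in a set that ran from 84 to 631 bases in the WT heat table.

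Between genotypes the table of unheated groups held 4 member introns, all higher in atcyp18-1. Intron 6 of RPL5A had a ratio of 0.0468, 0.0334 and 0.0385 in WT normal and of 0.0808, 0.0898 and 0.0738 in atcyp18-1 normal, with no overlap. Intron 2 of RPL23aB went from 0.0117 to 0.0248, intron 2 of RPL10aA (AT1G08360) from 0.0190 to 0.0343 and intron 1 of RPL4A (AT3G09630) from 0.00388 to 0.00792 as group means. Among all 282 introns of that list, 97.9% were higher in the mutant, and 1.49% of tested genes had one, 1.46% as higher and 0.0347% as lower. The table of heated groups held 5 member introns, all lower in atcyp18-1, where 74.8% of its 310 introns were higher and 1.47% of tested genes had one, 1.06% as higher and 0.41% as lower. They were intron 2 of RPL9B, intron 2 of RPL9C, intron 3 of RPL3A, intron 2 of RPL13aA and intron 1 of RPL8C (AT4G36130). Exon reads of RPL9B and RPL9C may be split between these near-identical genes, so their separate ratios are uncertain. RPL8C intron 1 had a ratio of 0.00988, 0.00879 and 0.00816 in WT heat and of 0.00375, 0.00495 and 0.00519 in atcyp18-1 heat. The unheated and heated tables share no library with each other, but each shares its libraries with the heat tables.

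Single junctions also differed. In RPL11C a junction from 10302604 to 10302722 on chromosome 4, filed by the authors under 3′ splice sites, had 0, 6 and 0 reads in WT normal and 44, 45 and 55 reads in atcyp18-1 normal. In RPL10A the junctions from 4888760 to 4888831 and from 4888760 to 4888867 on chromosome 1 had together 22, 23 and 20 reads in WT heat and 0, 0 and 0 in atcyp18-1 heat. The unheated mutant did have such reads, with a mean of 14.7 in atcyp18-1 normal. With 0 reads in the 3 heated mutant libraries no fold is given. In RPL13B (AT3G49010) a junction filed under 5′ splice sites had 22, 17 and 23 reads in WT heat and 6, 15 and 6 in atcyp18-1 heat. For each of the 3 genes the groups did not overlap (exact two-sided permutation p = 0.1, the smallest possible), and these reads were not scaled to depth. The authors had listed these junctions as events of these same libraries, so the lack of overlap is no separate support. The stretches around the RPL11C and RPL10A junctions follow, 20 bases on each side, with the first or last 2 bases of the removed stretch in capitals.
RPL11C junction start (chr4:10302584-10302623, plus strand): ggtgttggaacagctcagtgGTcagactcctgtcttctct
RPL11C junction end (chr4:10302703-10302742, plus strand): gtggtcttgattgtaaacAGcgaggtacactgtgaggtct
RPL10A junction start (chr1:4888740-4888779, plus strand): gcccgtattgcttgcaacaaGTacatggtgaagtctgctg
RPL10A nearer end (chr1:4888812-4888851, plus strand): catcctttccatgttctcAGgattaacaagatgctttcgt
RPL10A farther end (chr1:4888848-4888887, plus strand): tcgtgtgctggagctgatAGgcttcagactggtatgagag
Each removed stretch begins with GT and ends with AG.

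Genes of the same pathway. The other 60S and stalk genes, 67 tested, had 48 higher and 6 lower in WT heat (median 0.40) and 40 higher and 12 lower in mutant heat (median 0.27), beside 50.1% and 46.3% of all genes called. Without scaling they had 37 higher and 12 lower in WT heat and 20 higher and 20 lower in mutant heat. AT4G25890 and AT5G47700, acidic stalk proteins, rose by 1.01 and 0.96 in WT heat. Of 32 ribosome biogenesis genes 6 rose and 16 fell in WT heat, with a median log2 change of -0.24, and 4 rose and 13 fell in mutant heat; without scaling 2 and 1 were higher and 21 and 21 lower. NSN1, a nucleolar GTPase, and BOP1, a pre-ribosome assembly factor, both changed by -0.93 and the RNA helicase MTR4 by -0.85 in WT heat. In mutant heat SWA1 changed by -0.76, NSN1 by -0.69 and BRX1-2 by 0.64. Between unheated genotypes 2 biogenesis genes were higher and 13 lower in atcyp18-1, with BOP1 at -0.64, beside 23.4% of all genes called. Between the heated ones 0 were higher and 5 lower, a share (15.6%) near the 16.7% of all genes. Without scaling these counts were 0 and 21 between unheated and 0 and 16 between heated genotypes. Of 10 genes of the TOR pathway and regulators of ribosomal protein genes, 1 rose and 4 fell in WT heat and 2 rose and 3 fell in mutant heat, a share of 50% each, near the 50.1% and 46.3% of all genes. Without scaling 0 were higher and 6 lower in WT heat and 0 higher and 5 lower in mutant heat. TRB3, a telobox-binding protein, changed by -0.95 in WT and by -1.11 in mutant heat, S6K2 by 0.49 and 0.40, and RAPTOR1 by -0.77 in mutant heat.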

How the data were processed

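RNA-seq counts of 12 libraries in 4 groups of 3 were used, grouped by their titles. The authors' deposited expression table gives raw read counts per transcript, per the file headers; no count was 0 and 54256 cells held 1, so each value may be the count plus 1. The submitters' processing notes name HTSeq and DESeq; no source used here gives versions, aligner, splicing caller or genome build. The deposited normalized signal and log2 fold changes were not used for tests. The authors' deposited intron tables give an intron signal, a ratio of intron to adjacent exon reads, and, for each pair of groups, a ratio of means and a raw p-value, per the file headers. No strand step is described, so reads of overlapping genes on opposite strands may mix.

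One transcript per gene was tested with edgeR 4.0.16 (R 4.3.3; TMM, filterByExpr, quasi-likelihood F test, 1 model of 4 group means, Benjamini-Hochberg adjusted p under 0.05), tested on simulated counts first. CPM are TMM-scaled; totals were 7468922 to 10506481 reads. Alternatives were unscaled library sizes, DESeq2 1.42.0, no filter, counts minus 1, another transcript, 2-group fits, a replicate block and each library left out. Intron coordinates are the tables'; their build was checked against TAIR10.1. Paralogue ratios and introns used an exact permutation test. Aligned coding sequences (Biopython 1.88) gave identity. Named were CYP18-1, per comparison the 5 largest rises and falls among called members, members with intron events, and the widest paralogue pairs; in the other lists up to 3 called genes per comparison. Members and lists were chosen with earlier results of these data known.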

Additional observations from a re-analysis of the deposited data

Results flagged for a closer look

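The heat change of RPL9D differed between genotypes, by a test of the difference itself: it was -0.43 on the log2 scale (atcyp18-1 minus WT; adjusted p = 0.0325, edgeR interaction term). The heat libraries were above the normal ones in both genotypes, with rises of 0.68 in WT and 0.25 in atcyp18-1. Over 18 alternatives its adjusted p ran from 0.000518 to 0.108, and the call was lost in 10.

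The heat change of RPL12C differed by -0.40 on the same scale (adjusted p = 0.0432, edgeR interaction term). All 3 heat libraries were above the normal ones in WT and the groups overlapped in atcyp18-1. Over 18 alternatives its adjusted p ran from 0.00262 to 0.124, and the call was lost in 11. In both cases the cause was not tested.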

How the results depend on the processing

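Of 38 named member results, 24 kept their direction and call under every alternative tried, and none reversed; the call was lost in 69 of 720 tries. The 38 were picked as the largest called changes of the main fit, so they do not stand for the other members. With unscaled library sizes the families higher and lower became 13 and 2 in WT heat, 7 and 5 in mutant heat, 0 and 4 between unheated genotypes and 0 and 9 between heated ones, and the members became 16 and 16 in mutant heat, 1 and 14 between unheated genotypes and 0 and 25 between heated ones. DESeq2 gave 2 families lower in mutant heat, 0 members and 0 families lower between unheated genotypes, 2 members and 0 families higher and 2 families lower between heated genotypes, and 6 members and 1 family lower for the interaction. Without the filter, 0 members were lower between unheated genotypes, 2 higher between heated ones and 0 lower for the interaction. Fits of 2 groups gave 3 members lower between unheated genotypes and 6 between heated ones.

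Leaving out 1 library, members higher and lower ranged from 39 to 42 and 5 to 6 in WT heat, 29 to 31 and 5 to 9 in mutant heat, 13 to 21 and 0 to 3 between unheated genotypes, and 0 to 7 and 5 to 10 between heated ones; the interaction had 0 to 2 lower. Families ranged from 20 to 20 and 1 to 1, 15 to 17 and 1 to 1, 3 to 7 and 0 to 1, and 0 to 2 and 1 to 2. The counts of introns with a higher ratio stayed at 4, 0, 4 and 0, and the direction of the intron signal gave the same counts. For the ratio this was fixed in advance, because the groups were apart for every listed member intron.

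Whether the shared replicate numbers pair the libraries is not settled by these values. Deviations of same-numbered libraries correlated at -0.090 to 0.142 (median 0.0255 over 18 pairs). Those of differently numbered libraries correlated at -0.234 to 0.207 (median -0.0112 over 36 pairs). Calls among all genes rose in every comparison when the replicate number was fitted as a block. For the interaction they went from 109 higher and 78 lower to 191 and 132. With a replicate block, 2 members were lower between unheated genotypes and 2 families lower between heated ones, and other counts stayed within 1.5 times. Depth also limits the intron ratios, which are small.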
